A study of Mus musculus with 4 samples.

Results

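A set of 10 genes of the light-response cascade of photoreceptors was followed in the retina of mouse embryos at embryonic day 19: Sag, Gngt1 and Pde6b, which belong to the rod cascade, Arr3, Gngt2, Gnb3, Gnat2, Pde6h and Opn1sw, which belong to the cone cascade, and Rcvrn, which serves rods and cones. They were taken by gene symbol, and all 10 had a row among the 18471 genes read and passed the filter on low counts that left 17300 genes for testing. Their rod or cone class comes from textbook knowledge, not from values measured here.

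In the outer segment, light isomerises the chromophore of an opsin, the opsin activates the trimeric G protein transducin, and transducin releases the phosphodiesterase PDE6 from its inhibitory gamma subunit, so that cyclic GMP falls and the cation channels close. Arrestins end the opsin's activity, and recoverin adjusts its phosphorylation through opsin kinase in a calcium-dependent way. Rods and cones use paralogous subunits for most of these steps. In the mouse, cones are born before birth and rods mostly later, and many of these genes are switched on well before outer segments form.

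The 4 libraries came from retinas of individual genotyped embryos, with 2 embryos labelled wild-type and 2 labelled Foxn3KO. The Foxn3KO embryos were homozygous for the allele Foxn3em1(IMPC)Bay on C57BL/6NJ, a deletion of exon 3 of the forkhead factor gene Foxn3, and the labels name no further allele or treatment. The study addresses how Foxn3 takes part in a network that controls primary cilia of the developing retina.

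Total counts per library ranged from 22543531 to 29360129. Foxn3 was higher in the libraries labelled Foxn3KO, at 4181 and 3219 counts against 2421 and 2712, and a count per gene does not resolve the deleted exon, so every direction below rests on the labels. Wild-type replicate 1 stood apart in sex pattern, with 83073 Xist counts against 9 to 19 in the other 3 libraries. It also held almost no lens RNA: 14 lens markers summed to 4.99 CPM (counts scaled to a common library size) there, to 97.5 in wild-type replicate 2 and to 284 and 286 in the Foxn3KO libraries. The fold changes of the 10 genes and the counts of genes called were therefore also computed without it. The retinal identity of the samples was checked on Crx and Otx2, which had means of 235 and 461 CPM in the wild-type libraries.

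Of the 10 genes, 7 rose in the Foxn3KO libraries: all 3 rod genes, Rcvrn and 3 of 6 cone genes (edgeR quasi-likelihood test, p adjusted over every tested gene by Benjamini-Hochberg, threshold 0.05). Across all tested genes, 21.9% passed in either direction, 12.3% higher and 9.66% lower. The set was chosen with earlier results of these data known, so this contrast is no independent evidence. When either Foxn3KO library was left out, 6 of the 10 passed. The rod genes rose by 0.84 to 0.99 on the log2 scale, while the cone genes ranged from -0.09 to 0.60. In 9 of the 10 genes each Foxn3KO library lay above each wild-type library in CPM, against 29.9% of all tested genes. In Gnat2 the order was the opposite, as in 30.5% of all tested genes. The median log2 fold change was 0.85 for the rod genes and 0.32 for the cone genes, against -0.0047 for all tested genes. In bulk tissue, more photoreceptor precursors and more RNA per precursor cannot be told apart.

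**Figure D1:**
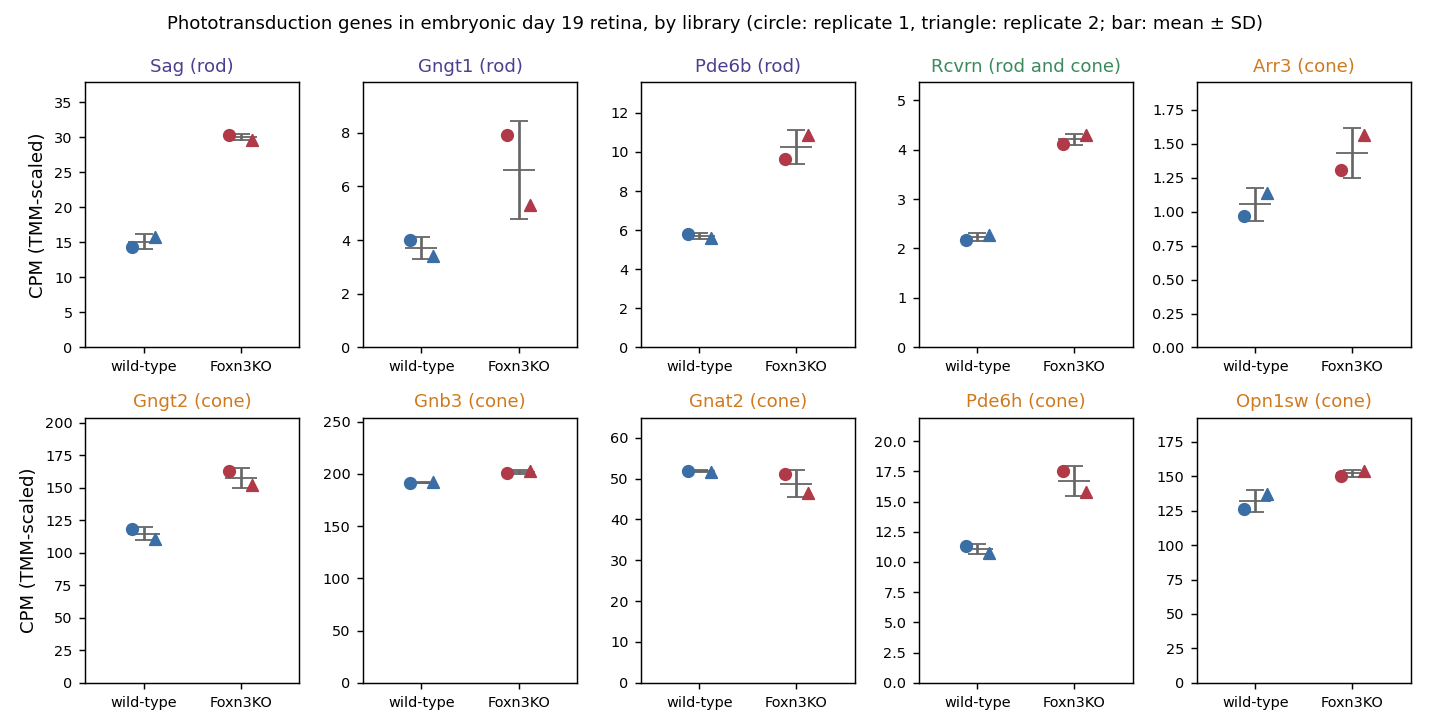
CPM, scaled by TMM library size, of the 10 genes in each library. Circles are replicate 1, triangles replicate 2, and bars the mean ± SD of 2 libraries per group. Sag, Pde6b and Rcvrn separate widely between the groups, whereas Gnb3 and Gnat2 differ by little. The Foxn3KO libraries of Gngt1 are uneven, and the lower lies nearer to the wild-type libraries.

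Among the rod genes, Sag encodes rod arrestin, which mouse cones also make. Sag had 356 and 430 counts in the wild-type libraries and 881 and 664 in the Foxn3KO libraries. Scaled for depth these were 14.4 and 15.8 CPM against 30.3 and 29.6 CPM, so the groups were far apart compared with the spread within either. The change was 1.98-fold (95% interval 1.76 to 2.24), a log2 fold change of 0.99 (SE 0.082, edgeR adjusted p = 5.46e-08), and it was 0.92 without wild-type replicate 1.

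Pde6b, the catalytic beta subunit of rod phosphodiesterase, had 144 and 152 counts in the wild-type libraries and 280 and 243 in the Foxn3KO libraries. In CPM these were 5.81 and 5.59 against 9.62 and 10.9, with no overlap. Its log2 fold change was 0.84 (SE 0.131, edgeR adjusted p = 0.000134). Gngt1, the gamma subunit of rod transducin, had 99 and 93 counts against 230 and 119. Its Foxn3KO libraries were uneven, at 7.90 and 5.31 CPM, and replicate 1 was the higher; the wild-type libraries stood at 3.99 and 3.42 CPM. The log2 fold change of Gngt1 was 0.85 (SE 0.191, edgeR adjusted p = 0.00353). Without Foxn3KO replicate 1 the value was 0.52 and no longer passed (edgeR adjusted p = 0.133), so its size rests on that library.

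Rcvrn encodes recoverin, the calcium sensor of rods and cones. It had 54 and 62 counts in the wild-type libraries and 120 and 96 in the Foxn3KO libraries, or 2.18 and 2.28 against 4.12 and 4.29 CPM. The libraries of each group lay close together and the groups did not overlap. Its log2 fold change was 0.91 (SE 0.198, edgeR adjusted p = 0.00275), and it ranged from 0.88 to 0.94 when any single library was left out.

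Of the cone genes, Gngt2 and Pde6h rose most. Gngt2, the gamma subunit of cone transducin, had 2937 and 3018 counts in the wild-type libraries and 4753 and 3413 in the Foxn3KO libraries. In CPM it stood at 118 and 111 against 163 and 152. That is 1.38-fold (95% interval 1.28 to 1.48), a log2 fold change of 0.46 (SE 0.0504, edgeR adjusted p = 2.25e-06).

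Pde6h, the inhibitory gamma subunit of cone phosphodiesterase, had 281 and 292 counts against 511 and 354. Its CPM values were 11.3 and 10.7 in the wild-type libraries and 17.5 and 15.8 in the Foxn3KO libraries. The log2 fold change was 0.60 (SE 0.101, edgeR adjusted p = 0.000290), with no overlap between the groups.

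Opn1sw, the short-wavelength cone opsin, had 3125 and 3730 counts against 4370 and 3447, or 126 and 137 against 150 and 154 CPM. The difference was small beside those of the rod genes, at 1.15-fold (95% interval 1.07 to 1.24) and a log2 fold change of 0.21 (SE 0.0496, edgeR adjusted p = 0.00564). Without Foxn3KO replicate 2 it was 0.19 and did not pass (edgeR adjusted p = 0.0779).

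The other cone genes, Gnb3, Gnat2 and Arr3, did not pass. Gnb3, the beta subunit of cone transducin, is also made by bipolar cells. It had 4736 and 5223 counts in the wild-type libraries and 5845 and 4544 in the Foxn3KO libraries. These were 191 and 192 against 201 and 203 CPM, a log2 fold change of 0.07 with a 95% interval of -0.01 to 0.16 (edgeR adjusted p = 0.234).

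Gnat2, the alpha subunit of cone transducin, had 1287 and 1401 counts against 1486 and 1038, and 51.9 and 51.6 against 51.0 and 46.3 CPM. Its log2 fold change was -0.09, with a 95% interval of -0.22 to 0.04 (edgeR adjusted p = 0.358). The intervals of Gnb3 and Gnat2 end well below the estimate of any rod gene.

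Arr3, cone arrestin, was scarce, with 24 and 31 counts in the wild-type libraries and 38 and 35 in the Foxn3KO libraries. These were 0.968 and 1.14 against 1.30 and 1.56 CPM. The log2 fold change was 0.42, but the 95% interval ran from -0.24 to 1.08 (edgeR adjusted p = 0.376). The interval includes 0 as well as the estimates of all 3 rod genes. Arr3 lies on the X chromosome, and without wild-type replicate 1 its value was 0.31.

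**Figure D2:**
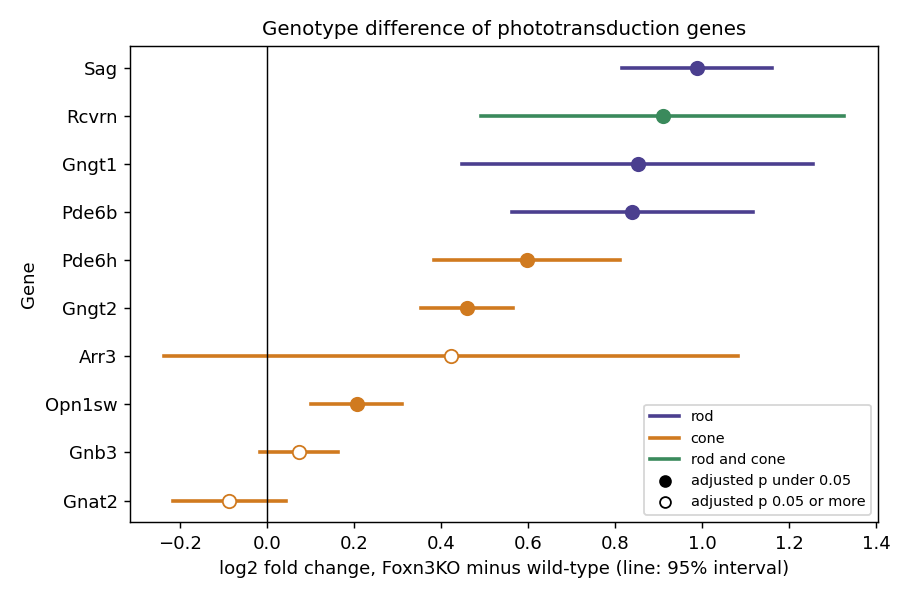
Log2 fold change of each gene, Foxn3KO minus wild-type, with its 95% interval from the edgeR fit over all tested genes; filled points passed an adjusted p of 0.05 and open points did not. Rod genes and Rcvrn sit between 0.84 and 0.99, and the cone genes spread from -0.09 for Gnat2 to 0.60 for Pde6h.

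The subunits of a single complex did not all move alike. Cone transducin is built from Gnat2, Gnb3 and Gngt2, and the 95% interval of Gngt2, 0.35 to 0.57 on the log2 scale, lies above those of Gnb3 and Gnat2. In the authors' FPKM (counts scaled by gene length and library size), Gngt2 stood at 3.64 and 3.44 times Gnat2 in the wild-type libraries and at 5.10 and 5.25 times in the Foxn3KO libraries. The ratio of Gnb3 to Gnat2 was 4.19 and 4.24 against 4.48 and 4.98. Both ratios were higher in each Foxn3KO library than in each wild-type library; the differences of these ratios were not tested.

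The level of a gene can be compared with that of another only per length, and on this scale cone genes led at this prenatal stage. In the deposited FPKM of the wild-type libraries, Gnb3 was highest at 72.5 ± 0.429 (SD, n = 2), followed by Gngt2 at 60.9 ± 2.68, Opn1sw at 51.3 ± 3.17 and Gnat2 at 17.2 ± 0.0566. Then came Rcvrn at 2.14 ± 0.0734, Sag at 1.69 ± 0.119, Pde6h at 1.40 ± 0.0506, Pde6b at 1.13 ± 0.0283 and Gngt1 at 1.05 ± 0.113, and Arr3 was lowest at 0.446 ± 0.0524. Only the libraries of Pde6b and Gngt1 overlapped among neighbours in this order. So 4 cone genes formed the upper tier, while on this scale Pde6h and Arr3 lay among or below the rod genes. The place of Pde6h depends on the scaling by length, as given below.

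In the Foxn3KO libraries the order changed at the top, with Gngt2 at 83.8 ± 4.06 FPKM above Gnb3 at 76.5 ± 0.589. The lower part kept its order, from Rcvrn at 4.03 ± 0.113 and Sag at 3.36 ± 0.0477 down to Arr3 at 0.607 ± 0.0773. There Pde6h, Pde6b and Gngt1 were neighbours whose libraries overlapped.

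These levels depend on the gene length used. The deposited FPKM imply a length of 8920 bases for Sag and 3525 for Gngt1, against 1719 and 1183 in the longest protein-coding transcript of GENCODE vM21. For Opn1sw the lengths were 2565 and 2410, and for Pde6h 7869 and 5940. Per kilobase of that transcript, wild-type Sag stood at 8.78 ± 0.605 CPM and Gngt1 at 3.13 ± 0.340 (SD, n = 2 each), above Rcvrn at 2.14 ± 0.0710, Pde6b at 2.04 ± 0.0536 and Pde6h at 1.86 ± 0.0695. Gnb3, at 104 ± 0.481, Gngt2, Opn1sw and Gnat2 kept the top ranks. On this scale Gngt2, at 99.4 ± 4.82, stayed below Gnb3, at 109 ± 0.832, also in the Foxn3KO libraries. The median cone gene was 30.3 ± 2.14 times the median rod gene in deposited FPKM of the wild-type libraries (SD, n = 2), but 12.8 times per kilobase of the GENCODE transcript.

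**Figure D3:**
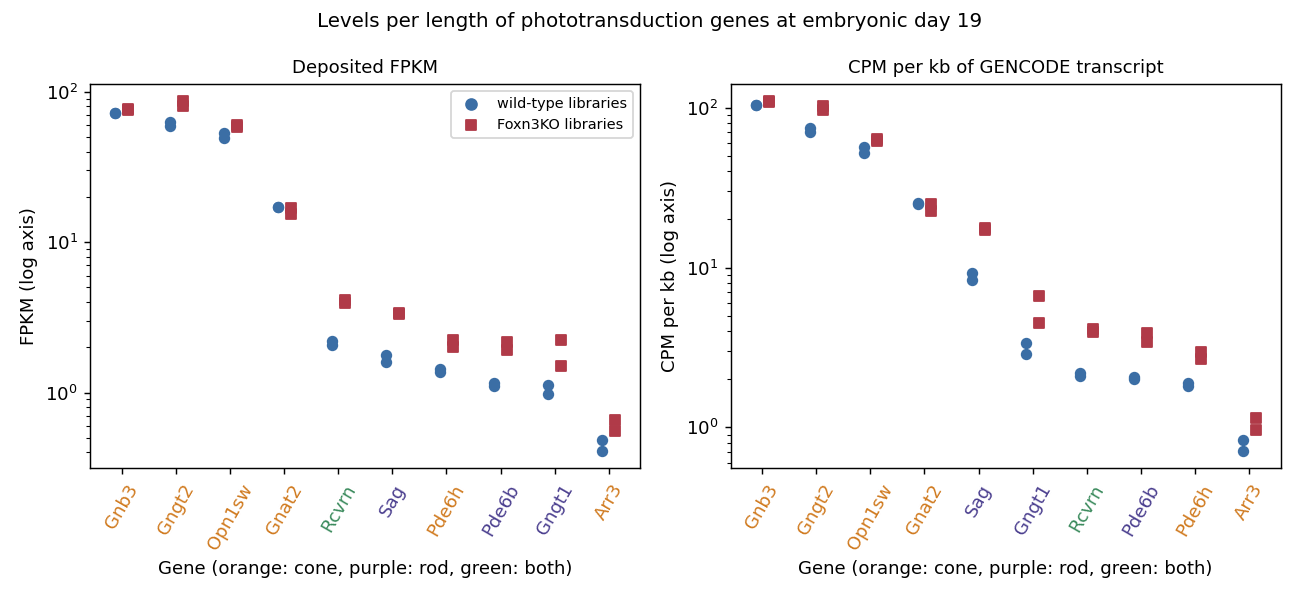
Levels per length on a log axis, genes ordered by their wild-type mean; each point is a library, circles wild-type and squares Foxn3KO. The left panel shows the deposited FPKM and the right panel CPM per kilobase of the longest GENCODE coding transcript; Gnb3, Gngt2, Opn1sw and Gnat2 form the upper tier in each panel, and Sag ranks higher on the right.

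Set against each other in each library, the summed FPKM of the 6 cone genes was 52.3 and 53.0 times that of the 3 rod genes in the wild-type libraries and 32.0 and 33.8 times in the Foxn3KO libraries. Per kilobase of the GENCODE transcript the same sums stood at 18.7 and 18.4 against 10.9 and 11.6 times. The rod genes thus made up 1.88% and 1.85% of the rod and cone sum of FPKM in wild-type and 3.03% and 2.87% in Foxn3KO, but 5.07% and 5.17% against 8.39% and 7.96% on the GENCODE length. The groups did not overlap on either scale. Between the transducin gamma paralogs, Gngt1 took 1.77% and 1.62% of the summed FPKM of Gngt1 and Gngt2 in wild-type and 2.52% and 1.83% in Foxn3KO; on the GENCODE length these shares were 4.33% and 3.97% against 6.10% and 4.47%. Between the arrestins, Sag stood at 3.93 and 3.67 times Arr3 in wild-type FPKM and at 6.14 and 5.02 times in Foxn3KO. With the shorter GENCODE length of Sag it stood at 11.3 ± 0.538 times Arr3 against 16.7 ± 2.36 times (SD, n = 2 each). The size of each ratio thus depends on the length used, while the Foxn3KO libraries lay on the same side of the wild-type libraries on both scales. These ratios describe the libraries, and no test was run on them.

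CRX and OTX2, homeodomain factors that switch on photoreceptor genes, bind a TAATCC core, so promoters of genes that passed and of genes that did not are set side by side. The RefSeq promoter table (GRCm38.p6) matched 7 of the 10 genes. Below are the 150 bases before the annotated start of Sag and Gngt1, which rose, and of Gnat2 and Arr3, which did not pass, written 5′ to 3′ on the gene's strand; capitals mark TAATCC or the variant TAATCT on either strand.
Sag (chr1:87803530-87803679, plus strand): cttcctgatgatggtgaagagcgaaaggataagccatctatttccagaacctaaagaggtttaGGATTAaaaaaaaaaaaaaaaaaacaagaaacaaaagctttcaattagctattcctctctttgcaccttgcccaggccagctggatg
Gngt1 (chr6:3993858-3994007, plus strand): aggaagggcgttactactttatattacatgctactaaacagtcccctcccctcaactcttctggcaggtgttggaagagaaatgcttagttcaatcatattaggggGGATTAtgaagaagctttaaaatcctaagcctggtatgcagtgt
Gnat2 (chr3:108092916-108093065, plus strand): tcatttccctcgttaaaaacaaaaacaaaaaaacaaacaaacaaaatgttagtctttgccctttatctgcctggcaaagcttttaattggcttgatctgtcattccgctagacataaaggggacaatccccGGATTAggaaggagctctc
Arr3 (chrX:100605347-100605496, plus strand): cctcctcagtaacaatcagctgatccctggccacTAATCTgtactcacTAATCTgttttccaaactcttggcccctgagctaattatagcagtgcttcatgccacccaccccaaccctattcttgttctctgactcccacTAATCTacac

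In the 250 bases before the start, searched on both strands, the TAATCC core occurred in Sag, Gngt1 and Gnat2, 3 of the 7 genes, and in 6.25% of 32851 promoters of the table. The first base of the match lay 87 bases before the start in Sag, 44 in Gngt1 and 19 in Gnat2. The TAATCT variant occurred in Arr3, with 3 matches, and in Opn1sw, against 7.31% of all promoters. The letters TGCTGA, which form part of the site of the rod factor NRL, occurred in Sag, Pde6b and Opn1sw, and in 16.1% of all promoters. Pde6h held none of these 3 strings. The TAATCC core was thus present in Sag and Gngt1, which rose, and in Gnat2, which did not pass. It was absent from Pde6b, Pde6h and Opn1sw, which also rose.

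Of 9 further genes of the rod cascade 6 were tested, and 2 rose while none fell. Across all tested genes 12.3% rose and 9.66% fell, the shares to set beside the counts of this and the following lists. Pde6g, the inhibitory gamma subunit of rod phosphodiesterase, rose by 0.41 (edgeR adjusted p = 0.00450). Gnb1, the beta subunit of rod transducin, which most tissues express, was the most abundant of this list and had a log2 fold change of 0.09 (edgeR adjusted p = 0.121). Cngb1, a subunit of the rod channel, had a value of -0.01 (edgeR adjusted p = 0.977). The median of the 6 was 0.23, and without wild-type replicate 1 the fit called 5 of them.

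Of 5 tested genes listed with the rest of the cone cascade 1 passed, close to the 21.9% of all tested genes. It was Kcnv2, which rose by 0.47 (edgeR adjusted p = 0.00693). Kcnv2 is a potassium channel subunit of photoreceptors and not a step of the cascade described above. The channel subunit gene Cngb3 had a log2 fold change of -0.10, Pde6c, the catalytic subunit of cone phosphodiesterase, -0.0025, and the channel subunit gene Cnga3 0.12 (edgeR adjusted p = 0.309, 0.988 and 0.485). The median was -0.0025. Kcnv2 was lost without Foxn3KO replicate 2, where the count was 0, and the count was 2 without wild-type replicate 2.

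Genes that rods and cones share went in both directions. Of 8 tested, Pdc, which binds the beta and gamma subunits of transducin, rose by 0.29 (edgeR adjusted p = 0.000231), and Unc119, which carries transducin alpha, rose by 0.17 (edgeR adjusted p = 0.0158). Rgs9, which speeds the shut-off of transducin, fell by 0.60 in log2 units (edgeR adjusted p = 1.08e-05), from 40.5 ± 1.66 to 26.7 ± 2.46 CPM (SD, n = 2 each). Pde6d, a carrier of lipid-modified proteins that most tissues make, had a log2 fold change of 0.07 (edgeR adjusted p = 0.402), and the median of the 8 was 0.11.

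Of 17 tested genes of the outer segment and visual cycle, 5 rose and none fell, with a median of 0.19. Mak, a kinase of the photoreceptor cilium, rose by 0.49, Tulp1, which moves proteins to the outer segment, by 0.37, Rom1, a disc rim protein, by 0.24, Cdhr1, a cadherin of the outer segment base, by 0.19, and Rbp3, which carries retinoids between cells, by 0.19 (largest edgeR adjusted p = 0.00836). Prom1, among the 3 most abundant, had a log2 fold change of 0.01 (edgeR adjusted p = 0.930). This count depended on single libraries: it was 9 without wild-type replicate 1, 2 without Foxn3KO replicate 1 and 3 without Foxn3KO replicate 2.

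Of 14 tested regulators of photoreceptor fate 3 passed, close to the 21.9% of all tested genes. Nrl, the rod determinant, rose by 0.28 (edgeR adjusted p = 0.000549), and its partner Nr2e3, which represses cone genes in rods, rose by 0.17 (edgeR adjusted p = 0.0210). Onecut1, which acts in cone and horizontal cell precursors, fell by 0.51 in log2 units (edgeR adjusted p = 0.0131). Crx (0.06), Otx2 (-0.02), Prdm1 (-0.05), Neurod1 (0.04), the cone factors Thrb (-0.18) and Rxrg (0.11), and Rorb (0.08) did not pass; their smallest edgeR adjusted p was 0.0550, for Thrb. DESeq2 called 1 of the 14, and the fit called 5 without wild-type replicate 2 and 1 without Foxn3KO replicate 1.

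Likeness of pattern was measured as the distance between the log2 CPM of the 4 libraries, each gene centred on its mean, over 50 tested photoreceptor genes outside the 10. Among the closest to Sag were Impg1 (distance 0.338), which had only 7 to 14 counts per library, and Mak (0.547). Closest to Arr3 were Tulp1 (0.232), Nrl (0.238) and Kcnv2 (0.282). With 4 libraries such distances only describe.

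**Figure D4:**
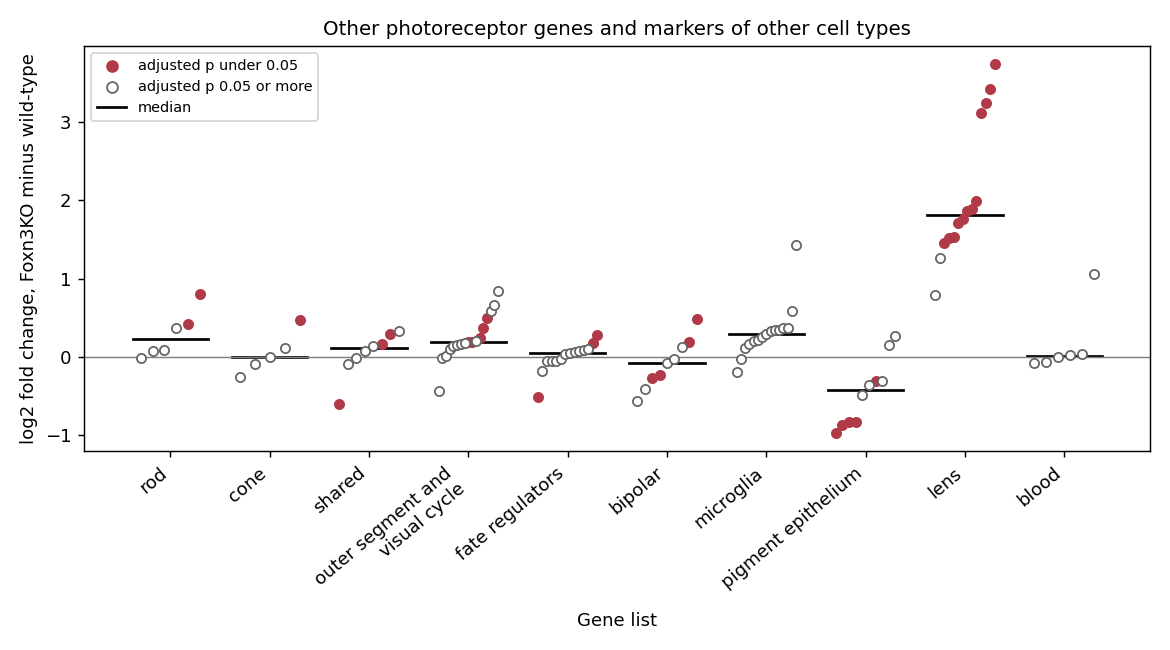
Log2 fold change of the tested genes of 10 lists, Foxn3KO minus wild-type; each point is a gene, filled where the edgeR adjusted p was under 0.05, and lines are list medians. The further rod, outer segment, microglia and lens lists have medians of 0.23, 0.19, 0.29 and 1.81, and the pigment epithelium list lies at -0.42.

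Markers of other cell types differed between the groups as well. Lens and pigment epithelium markers also differed between the wild-type libraries. Neither the source of these differences nor their part in the results was tested. Of 14 tested lens markers, 12 rose; the 4 with the smallest adjusted p were Mip, Bfsp1, Crygs and Crybb3, and DESeq2 called 2. Cryaa, the most abundant lens marker in Foxn3KO, had 8 and 776 counts in the wild-type libraries and 4055 and 3053 in the Foxn3KO libraries. Of 10 tested pigment epithelium markers 5 fell, among them Rgr by 0.97, Pmel by 0.84, Ttr by 0.83 and Rlbp1 by 0.31 in log2 units; the list summed to 96.5 and 126 CPM in wild-type and 76.6 and 78.9 CPM in Foxn3KO, and 3 were called without wild-type replicate 2. The most abundant pigment epithelium markers were Rlbp1, Pmel and Dct, and Rpe65 was not listed among the genes read. Without wild-type replicate 1, which held almost no lens RNA, the log2 fold changes were 0.98 for Gngt1, 0.86 for Pde6b and 0.88 for Rcvrn. They were 0.51 for Gngt2, 0.64 for Pde6h and 0.15 for Opn1sw. In that fit the remaining wild-type library held 97.5 CPM of lens markers against 284 and 286 in Foxn3KO. The lens difference between the groups therefore remained, and the fit cannot show its part in these values.

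Bipolar cells, which share Gnb3, and microglia were compared too. Of 9 tested bipolar markers, Trpm1 and Prkca rose by 0.49 and 0.19, and Isl1 and Lhx4 fell by 0.23 and 0.27 on the log2 scale, with a list median of -0.08; DESeq2 called 1 of them, as did the fit without Foxn3KO replicate 2. The list summed to 1091 and 1141 CPM in wild-type and to 1053 and 1059 CPM in Foxn3KO. It includes Otx2, which other retinal cells express. Of 15 tested microglia markers none passed in edgeR or DESeq2, and 3 had an unadjusted p under 0.05 (Csf1r had a log2 fold change of 0.34). Their median log2 fold change was 0.29, above the 0.23 of the further rod list and the 0.19 of the outer segment list. Their sum was 57.2 and 59.3 against 64.4 and 63.1 CPM. Of 6 tested blood markers none passed in edgeR or DESeq2 and 0 had an unadjusted p under 0.05, but a fit without wild-type replicate 1 called 3, and 4 were called when replicate 2 of that group was left out. The most abundant were the globin genes Hbb-bs, Hba-a1 and Hbb-bt, with log2 fold changes of -0.08, -0.06 and 0.02. The whole blood list summed to 30.5 and 78.8 CPM in wild-type and 50.9 and 53.8 CPM in Foxn3KO.

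Some of the 10 genes overlap a gene on the opposite strand in GENCODE vM21. The libraries were strand-specific, but the use of strand in counting is not given in the sources used here, so reads of such pairs may not be told apart. Gngt2 overlaps Abi3, an immune cell gene with 152 and 199 counts in wild-type and 272 and 178 in Foxn3KO (log2 fold change 0.37, edgeR adjusted p = 0.0744), far fewer than Gngt2. Pde6h overlaps Arhgdib, which had 25 to 48 counts and did not pass (edgeR adjusted p = 0.356). Opn1sw overlaps 440 bases of Calu, which had 5539 to 7557 counts, more than the 3125 to 4370 of Opn1sw. Calu had a log2 fold change of -0.09 (edgeR adjusted p = 0.198). Rcvrn overlaps Glp2r, which was not listed among the genes read. The overlaps of the gene spans were 5261 bases for Gngt2, 18068 for Pde6h and 8008 for Rcvrn.

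In the authors' deposited table, 7 of the 10 genes had an adjusted p under 0.05, and Gnb3 (0.393), Gnat2 (0.628) and Arr3 (0.651) did not. These adjusted p-values matched those of DESeq2 run here, so the deposited calls are not separate evidence from that setting. The authors' deposited table gives log2 fold changes of 0.96 for Sag, 0.76 for Pde6b, 0.71 for Rcvrn, 0.69 for Gngt1, 0.54 for Pde6h, 0.45 for Gngt2 and 0.20 for Opn1sw. Each was smaller than in DESeq2 run here, which gave 0.99 for Sag, 0.84 for Pde6b and 0.91 for Rcvrn. How the deposited fold changes were estimated is not given in the sources used here.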

How the data were processed

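RNA of retinas from 2 wild-type and 2 Foxn3KO embryos at embryonic day 19 was sequenced; groups and replicate numbers came from the sample labels. The members and gene lists were chosen with earlier results of these data known. A table for the whole series, with a column per library, holds raw gene counts deposited by the authors. It also holds FPKM computed by the authors, which equal the counts times a factor per library and gene length, and the authors' mean signal per gene, their log2 fold changes, the standard errors of these (a score) and p-values. Per the submitters' processing notes, mm39 and DESeq2 were used; aligner, counter, annotation and the handling of molecular identifiers are not given in the sources used here.

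From 18471 genes (1 repeated identifier dropped), filterByExpr kept 17300. After TMM scaling, counts were tested in edgeR 4.0.16 under R 4.3.3 (the edgeR 4 quasi-likelihood fit, genotype only, two-sided, Benjamini-Hochberg adjustment, threshold 0.05), and the procedure was tested on simulated data. Standard errors came from the fold change and F statistic, and 95% intervals from the fit's degrees of freedom. Fits without a library assume that the lone sample varies like the other group. Named were the 10 genes, 8 fate regulators, Foxn3, Xist, overlapping genes, the nearest patterns and, of each list, up to 4 called genes per direction and the 3 most abundant; Cdhr1, as the last of 5 calls, was added after the values were seen. A few genes that this rule names are not reported here; the counts, sums and medians of their lists include them. Levels between genes used FPKM, lengths GENCODE vM21 (GRCm38). Totals of 22543531 to 29360129 counts make 3 counts equal to 0.102 to 0.133 CPM; sums over marker lists used these totals without TMM factors. Alternatives were RLE and total count scaling, other filters, DESeq2 1.42.0, limma-voom (limma 3.58.1), the earlier edgeR fit, the replicate number as a term and each library left out.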

Additional observations from a re-analysis of the deposited data

How the results depend on the processing

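The same 7 of the 10 genes passed under RLE and total count scaling, without a filter, with at least 10 counts in every library, under DESeq2, limma-voom, the earlier edgeR fit and the replicate block, and no member's direction changed in these settings or when a library was left out. Libraries with the same replicate number did not deviate together (correlation of replicate differences across genes -0.0083); with the replicate block 4222 genes were called against 3795, and 7 members. Over all genes DESeq2 called 2437; the cause was not tested. Leaving out each library gave 2323 to 5067 calls over all genes (2323 without Foxn3KO replicate 2 and 2328 without Foxn3KO replicate 1), 6 to 7 called members, Gngt1 values of 0.521 to 1.09, Opn1sw values of 0.147 to 0.269, cone medians of 0.230 to 0.343 and rod medians of 0.806 to 1.01. Without Gnb3, a choice made after seeing the data, the cone median was 0.424. The cone to rod ratio of median levels was 14.6 in CPM without length scaling and 12.8 per kilobase of GENCODE transcript, also chosen after seeing the data.

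DESeq2 called 1 fate regulator, 1 bipolar and 2 lens genes. Leaving out each library gave 2 to 5 further rod, 0 to 2 further cone, 2 to 9 outer segment, 1 to 5 fate regulator, 1 to 4 bipolar, 0 to 1 microglia, 3 to 7 pigment epithelium and 0 to 4 blood genes. Depth limits Arr3 most, with 24 to 38 counts per library.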
